A study of Mus musculus with 24 samples.

Results

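The 41 genes described here are interferon-stimulated genes, a set that cells switch on when interferon reaches them. They were chosen by symbol from a list of named genes, and all 41 were found among the 53467 genes of the count table. The rule for the list uses no measured value, but the genes were chosen with earlier results of these data known. Their shares of calls, set below against those of all genes, are therefore descriptions and no independent test. The RNA came from whole livers of male C57BL/6JAusb mice, 14 to 15 weeks old when the plasmids were injected, in 24 bulk RNA-seq libraries, 1 for each liver. Every mouse had a hydrodynamic tail vein injection, in which plasmids in a large fluid volume are forced into the liver, and all carried the Sleeping Beauty (SB) transposase plasmid at 0.8 µg. The SB groups received that plasmid alone. SB/AKT/c-Met mice also received 10 µg of an AKT plasmid and 10 µg of a c-Met plasmid, and SB/AKT/NRas mice received 10 µg of AKT and 10 µg of NRas. The AKT form was myristoylated (myr-AKT), the NRas form was NRasV12, and both human oncogenes, MET and NRAS, can be told from the mouse genes in the counts. From day 8 to 10, mice had 10 to 11 intraperitoneal injections over 5 to 6 weeks of saline or of thioacetamide (TAA), a hepatotoxin, at 100 mg/kg first and 200 mg/kg afterwards. Of the 6 groups, the pair under SB alone (SB + saline and SB + TAA) held 4 livers each. With c-Met there were 3 livers under saline (SB/AKT/c-Met + saline) and 4 under TAA, and with NRas there were 4 under saline and 5 under TAA, named in the same way. No group received c-Met or NRas without AKT. Below, c-Met alone or NRas alone means that oncogene with AKT under saline, and TAA alone means SB + TAA. The oncogenes integrate in a share of the liver cells, and the tissue was not separated into nodules and surrounding liver.

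Type I and type III interferons are secreted by cells that sense foreign or misplaced nucleic acid, and they bind receptors coupled to the kinases Jak1 and Tyk2. The kinases activate transcription factors, among them Stat2, which works with Irf9 at a promoter element called the interferon-stimulated response element (ISRE). Interferon gamma acts at another element, the gamma-activated site (GAS). The induced proteins degrade viral RNA, stop translation, trap viral particles or tag proteins with the ubiquitin-like Isg15, and Usp18 removes that tag and also holds the receptor in check. In the liver, hepatocytes, Kupffer cells and infiltrating leukocytes can all respond.

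The ISRE is what many of the 41 genes share beyond their names, so it is shown here for 5 members with a called difference that hold it before their start, and for Stat2. It was searched as GAAANNGAAA on both strands, in RefSeq promoter windows of 250 bases before to 50 bases after a gene's start on GRCm38.p6, and overlapping matches were counted separately. A window was found for 30 of the 41 members, and 17 of those 30 (56.7%) held at least 1 match, against 3.44% of all 32851 promoter windows. For the GAS, searched as TTCNNNGAA, the shares were 7 of 30 members (23.3%) and 8.3% of all windows. A match is a run of letters and was not shown here to be bound. Each sequence below runs 5′ to 3′ on the gene's own strand, and capitals mark the matched bases, read in either orientation.

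Isg15 (chr4:156200871-156200900, minus strand, 82 to 53 bases before the start, 3 matches): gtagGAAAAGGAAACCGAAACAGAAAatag
Irgm1 (chr11:48871428-48871457, minus strand, 37 to 8 bases before the start, 2 matches): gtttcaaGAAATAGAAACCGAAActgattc
Ifit1 (chr19:34640785-34640814, plus strand, 104 to 75 bases before the start, 2 matches): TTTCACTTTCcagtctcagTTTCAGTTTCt
Ifit3 (chr19:34583397-34583426, plus strand, 132 to 103 bases before the start, 1 of its 2 matches): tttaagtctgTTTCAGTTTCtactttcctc
Rsad2 (chr12:26456553-26456582, minus strand, from 130 bases before the start, 1 match): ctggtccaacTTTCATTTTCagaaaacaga
Stat2 (chr10:128270266-128270295, plus strand, 232 to 203 bases before the start, 1 match): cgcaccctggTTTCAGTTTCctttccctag

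Isg15 and Irgm1 held overlapping matches, and the matches of Ifit1 stood apart. Of the 15 members with a window that were called in at least 1 comparison below or in the test across all groups, 6 held a match, and of the other 15 with a window, 11 did.

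The values are counts of unique molecules per gene, scaled here to CPM, counts relative to a common library total, with edgeR's trimmed mean of M values (TMM). Libraries held 2152510 to 3399247 counts. The TMM factors were 0.772 to 0.818 in SB + saline and 0.846 to 1.19 in the other groups, so scaling by library size alone shifts every comparison with SB + saline upwards. Human NRAS had 28 to 768 counts in the SB/AKT/NRas libraries and at most 2 elsewhere, and human MET had 2 to 31 counts in the SB/AKT/c-Met libraries and 0 elsewhere. A pair of livers stood apart: SB + TAA replicate 4 had a summed skeletal muscle marker level of 4838 CPM, against at most 22.3 CPM in the other 23, and SB/AKT/NRas + saline replicate 1 had the lowest human NRAS of its group (12.3 CPM, others 55.3 to 218 CPM) and the lowest share of reads assigned to genes (13.75%). A gene is said here to be called, to have risen or to have fallen, when edgeR's quasi-likelihood test gave a Benjamini-Hochberg adjusted p under 0.05 over 19381 genes, those that reached 0.5 CPM in 2 or more libraries. All 41 members passed that filter. Changes are log2 fold changes ± SE, and the p-values measure the spread between these livers.

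In a single test across the 6 groups, 13 of the 41 members differed by the quasi-likelihood F test, against 9.01% of all genes tested, and 22 had an unadjusted p under 0.05. The count was 7 without SB + saline replicate 2 and 8 without SB/AKT/NRas + TAA replicate 2. The smallest adjusted p-values belonged to Ifi27l2b (2.86e-04), Isg15 (7.75e-04), Usp18 (0.00241), Lgals3bp (0.00282), Samd9l (0.00411) and Eif2ak2 (0.0140). The order of the groups was shared by most members: SB/AKT/NRas + saline had the highest group mean for 27 of the 41 and SB + saline the lowest for 29. For each liver, the log2 CPM of every member was set against the SB + saline mean and averaged over the 41. That average shift was 0 ± 0.305 in SB + saline (SD, n = 4, range -0.38 to 0.29), 0.54 ± 0.0431 in SB + TAA (n = 4, 0.51 to 0.60), 0.55 ± 0.159 in SB/AKT/c-Met + saline (n = 3, 0.43 to 0.73) and 0.64 ± 0.219 in SB/AKT/c-Met + TAA (n = 4, 0.45 to 0.96). It was 0.92 ± 0.120 in SB/AKT/NRas + saline (n = 4, 0.84 to 1.10) and 0.65 ± 0.168 in SB/AKT/NRas + TAA (n = 5, 0.47 to 0.85). None of the 20 other livers fell into the SB + saline range, and the 4 groups between SB + saline and SB/AKT/NRas + saline overlapped each other. Within SB + saline the spread was wide, with replicate 2, the library of lowest depth, at -0.38 and replicate 3 at 0.29.

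**Figure D1:**
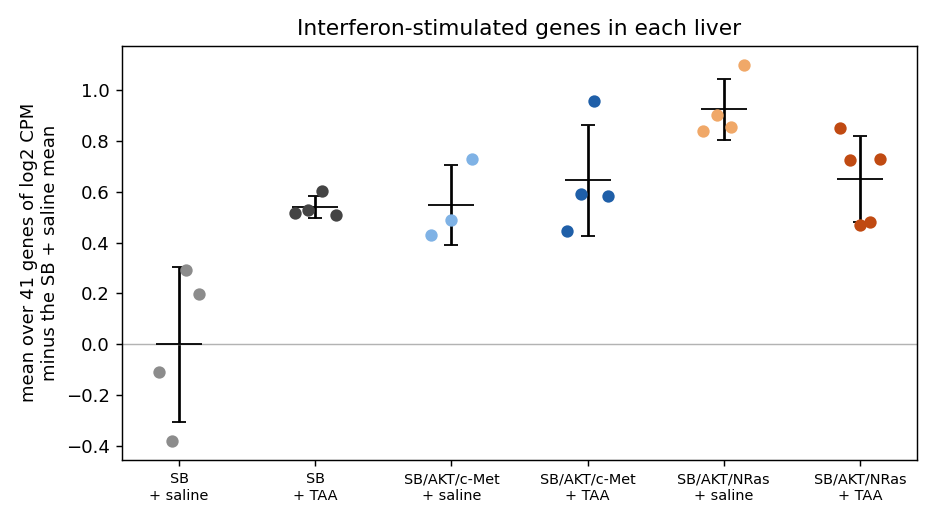
Mean log2 shift of the 41 interferon-stimulated genes in each of the 24 livers, in log2 CPM relative to the SB + saline mean, by group, with points for livers and lines for the group mean ± SD. SB + saline livers lie between -0.38 and 0.29, SB/AKT/NRas + saline livers between 0.84 and 1.10, and the other groups between 0.43 and 0.96.

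SB/AKT/NRas alone gave the largest number of called members of the 5 groups set against SB + saline. Of the 41 members, 18 rose and none fell, where 5.56% of all genes tested rose and 2.84% fell. An unadjusted p under 0.05 was reached by 24 members and by 22.4% of all genes. The median member was 1.05 higher on the log2 scale, against 0.07 for all genes, and 40 of the 41 estimates were positive. All 4 livers lay above all 4 SB + saline livers for 15 members, and for 5.07% of all genes tested. The members that rose were spread over the roles: 8 of the 14 antiviral effectors acting on RNA and translation, all 4 of the Ifi27 family with Xaf1, 2 of the 4 genes of the Isg15 and ubiquitin system, 1 of 4 nucleic acid sensors, 1 of 3 transcription factors and 2 of 3 members of other function. None of the 6 Mx and GTPase genes and none of the 3 membrane proteins (Bst2, Ifitm3 and Rtp4) was called. Ifi27 was not called with only the groups compared (adjusted p = 0.0952), with both livers that stand apart left out (0.0571), or without SB + saline replicate 1 (0.137) or 2 (0.114) or SB/AKT/NRas + saline replicate 1 (0.0697) or 2 (0.0946). Ifi27l2a was not called with only the groups compared (adjusted p = 0.0548), or without SB + saline replicate 1 (0.102) or 2 (0.0943) or SB/AKT/NRas + saline replicate 2 (0.124) or 3 (0.0615).

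Ifi27l2b (chr12:103450898-103457223, minus strand, GRCm38), a small hydrophobic protein of the Ifi27 family, had the largest change. Its levels were 14.6, 11.9, 23.3 and 18.8 CPM in SB + saline and 44.0, 173, 229 and 146 CPM in SB/AKT/NRas + saline. In SB + TAA the levels were 74.6, 48.6, 75.8 and 88.7 CPM, and in SB/AKT/c-Met + saline they were 67.1, 163 and 97.1 CPM. With oncogenes and TAA together the levels were 53.0, 73.5, 88.0 and 113 CPM for c-Met and 114, 132, 60.2, 44.7 and 126 CPM for NRas. Every liver outside SB + saline lay above the highest SB + saline liver, and the 5 other groups overlapped each other. The lowest SB/AKT/NRas + saline value belonged to replicate 1, the liver of low human NRAS. The log2 fold change from SB + saline was 3.10 ± 0.41 (adjusted p = 7.74e-05) in SB/AKT/NRas + saline.

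Isg15 (chr4:156199424-156200818, minus strand), the ubiquitin-like modifier whose promoter letters are given above, had the second smallest adjusted p. SB + saline livers had 6.42, 6.25, 11.6 and 11.6 CPM and SB/AKT/NRas + saline livers had 27.3, 25.1, 30.4 and 33.9 CPM. The SB + TAA values were 22.2, 16.2, 16.5 and 14.9 CPM and the SB/AKT/c-Met + saline values were 12.97, 13.3 and 21.4 CPM. SB/AKT/c-Met + TAA had 14.6, 17.6, 27.6 and 22.8 CPM, and SB/AKT/NRas + TAA had 20.4, 19.9, 18.2, 16.5 and 25.1 CPM. SB/AKT/NRas + saline lay wholly above SB + saline, SB + TAA and SB/AKT/c-Met + saline, overlapped SB/AKT/c-Met + TAA, and met SB/AKT/NRas + TAA at its lowest liver. Against SB + saline its change was 1.68 ± 0.24 (adjusted p = 1.88e-04). Usp18 (chr6:121245906-121270917, plus strand), the protease that takes Isg15 off its targets, had 5.14, 2.84, 5.21 and 4.71 CPM in SB + saline and 12.3, 16.01, 15.1 and 14.3 CPM in SB/AKT/NRas + saline. Its other levels were 17.5, 12.2, 15.3 and 12.98 CPM in SB + TAA and 4.17, 12.7 and 12.8 CPM in SB/AKT/c-Met + saline. With TAA they were 10.8, 19, 28.2 and 10.2 CPM in SB/AKT/c-Met livers and 22.4, 19.3, 11.6, 15.8 and 19.6 CPM in SB/AKT/NRas livers. Only SB/AKT/c-Met + saline overlapped SB + saline, through its replicate 1. The change of Usp18 in SB/AKT/NRas + saline was 1.66 ± 0.34 (adjusted p = 0.00316).

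Among the antiviral effectors, Samd9l (chr6:3372257-3399572, minus strand), an inhibitor of translation and growth, had 10.3, 7.39, 13.6 and 11.99 CPM in SB + saline and 16.7, 37.6, 23.3 and 38.4 CPM in SB/AKT/NRas + saline. SB + TAA livers had 9.41, 13.8, 12.2 and 13.5 CPM and SB/AKT/c-Met + saline livers had 19.9, 28.4 and 18.4 CPM. The levels with TAA were 19.2, 15.5, 24.2 and 22.5 CPM for c-Met and 26.4, 27.1, 17.3, 11.7 and 22.6 CPM for NRas. For Samd9l the SB + TAA livers overlapped SB + saline, whereas all livers with c-Met, and all with NRas except SB/AKT/NRas + TAA replicate 4, lay above both SB groups. The change in SB/AKT/NRas + saline was 1.41 ± 0.27 (adjusted p = 0.00202). Eif2ak2 (chr17:78852564-78882573, minus strand), the kinase PKR that halts translation on double-stranded RNA, had 12.8, 10.2, 17.2 and 20.1 CPM in SB + saline and 24.6, 29.9, 31.3 and 25.7 CPM in SB/AKT/NRas + saline. It had 19.5, 16.2, 16.2 and 14.9 CPM in SB + TAA and 23.6, 20.2 and 22.1 CPM in SB/AKT/c-Met + saline. With TAA it had 21.5, 26.4, 22.4 and 20.4 CPM in SB/AKT/c-Met livers and 26.0, 22.4, 20.4, 17.5 and 23.6 CPM in SB/AKT/NRas livers. For Eif2ak2 the SB + TAA livers lay within the SB + saline range, and SB/AKT/NRas + saline was higher than SB + saline by 0.87 ± 0.18 (adjusted p = 0.00407).

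The other effectors that rose in SB/AKT/NRas + saline were the helical RNA-binding proteins Ifit1 (1.24 ± 0.31, adjusted p = 0.0136), Ifit2 and Ifit3, the nucleotide enzymes Rsad2 (viperin, 1.22 ± 0.32, adjusted p = 0.0166) and Cmpk2 (1.85 ± 0.44, adjusted p = 0.00985), and the oligoadenylate synthetase-like Oasl2 (2.36 ± 0.54, adjusted p = 0.00719). With each library left out in turn, the call was lost in 4 settings for Ifit2 and in 4 for Ifit3. It was lost in 3 settings for Ifit1, 3 for Rsad2 and 2 for Cmpk2. Ifit2 was also not called with only the groups compared (adjusted p = 0.0730). Oasl2 averaged 1.29 ± 0.683 CPM in SB + saline (SD, n = 4) and 6.91 ± 2.94 CPM in SB/AKT/NRas + saline (n = 4), and Ifit1 averaged 5.17 ± 1.72 and 12.3 ± 3.97 CPM. Rsad2 and Cmpk2 lie side by side on chromosome 12, and Ifit1, Ifit2, Ifit3 and Ifit3b lie together on chromosome 19, so several of these members are neighbours on the genome. Of the 50-base runs of Ifit3, Ifit3b and Oas1a, 51.2%, 45% and 57.6% also occur in some other gene. The gene sharing most was Ifit3b for Ifit3, Ifit3 for Ifit3b and Oas1g for Oas1a, so the counts of these 3 members are uncertain. Outside this class, Xaf1, a partner of the apoptosis inhibitor XIAP, rose by 1.75 ± 0.35 (adjusted p = 0.0024) from 2.54 ± 1.39 to 8.94 ± 2.78 CPM. Ifi44, of unsettled function, rose by 2.65 ± 0.57 (adjusted p = 0.00475) from 0.764 ± 0.602 to 5.04 ± 1.99 CPM. The DNA and RNA sensor Zbp1 rose by 1.45 ± 0.34 (adjusted p = 0.00808), and the sensors Ifih1 (MDA5), Ddx58 (RIG-I) and Dhx58 (LGP2) were not called.

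Lgals3bp (chr11:118392751-118402092, minus strand) is a secreted galectin-binding glycoprotein. It had 35.5, 37.5, 59.4 and 51.8 CPM in SB + saline, 67.9, 69.5, 45.0 and 55.2 CPM in SB + TAA, and 58.3, 114 and 90.7 CPM in SB/AKT/c-Met + saline. It had 66.4, 133, 102 and 86.9 CPM in SB/AKT/NRas + saline. With TAA it had 75.7, 93.9, 124 and 76.2 CPM in SB/AKT/c-Met livers and 129, 121, 88.7, 89.7 and 110.3 CPM in SB/AKT/NRas livers. Its SB + TAA livers overlapped SB + saline, and both groups with oncogene and TAA lay above all SB livers. The change in SB/AKT/NRas + saline was 1.07 ± 0.23 (adjusted p = 0.00471).

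Of the 3 transcription factors among the 41, Irf7 rose in SB/AKT/NRas + saline against SB + saline, and Irf9 and Stat2 were called in no comparison. Irf7 (chr7:141262706-141266481, minus strand), itself interferon-induced, had 17.1, 16.5, 32.1 and 20.1 CPM in SB + saline and 51.9, 39.0, 26.4 and 65.7 CPM in SB/AKT/NRas + saline. SB + TAA had 22.9, 38.7, 31.5 and 20.6 CPM, and SB/AKT/c-Met + saline had 36.1, 25.6 and 28.5 CPM. With TAA the levels were 36.1, 44.7, 32.8 and 36.9 CPM for c-Met and 40.4, 26.8, 26.0, 26.5 and 30.8 CPM for NRas. Irf7 rose in SB/AKT/NRas + saline by 1.08 ± 0.25 (adjusted p = 0.00822), although its replicate 3 lay within the SB + saline range. Irf9 (chr14:55603571-55610030, plus strand), the DNA-binding partner of Stat2, had 23.1, 17.6, 19.7 and 25.3 CPM in SB + saline and 33.0, 17.1, 21.9 and 19.2 CPM in SB/AKT/NRas + saline. It had 19.8, 18.6, 18.7 and 12.98 CPM in SB + TAA. The c-Met livers had 23.2, 14.7 and 21.8 CPM under saline and 15.4, 14.1, 24.9 and 15.8 CPM under TAA, and SB/AKT/NRas + TAA livers had 22.03, 20.5, 20.7, 26.8 and 18.5 CPM. All 6 groups overlapped (F test adjusted p = 0.619). Stat2 (chr10:128270559-128292849, plus strand) had 27.4, 26.7, 43.7 and 37.3 CPM in SB + saline, 38.0, 30, 28.8 and 25.4 CPM in SB + TAA, and 45.8, 18.1 and 39.8 CPM in SB/AKT/c-Met + saline. With c-Met under TAA it had 29.6, 30.3, 33.7 and 24.2 CPM. Stat2 had 34.3, 26.1, 30.4 and 36.8 CPM in SB/AKT/NRas + saline, and 33.4, 33.5, 32.9, 35.1 and 20.6 CPM in SB/AKT/NRas + TAA. Its groups overlapped too (F test adjusted p = 0.960).

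**Figure D2:**
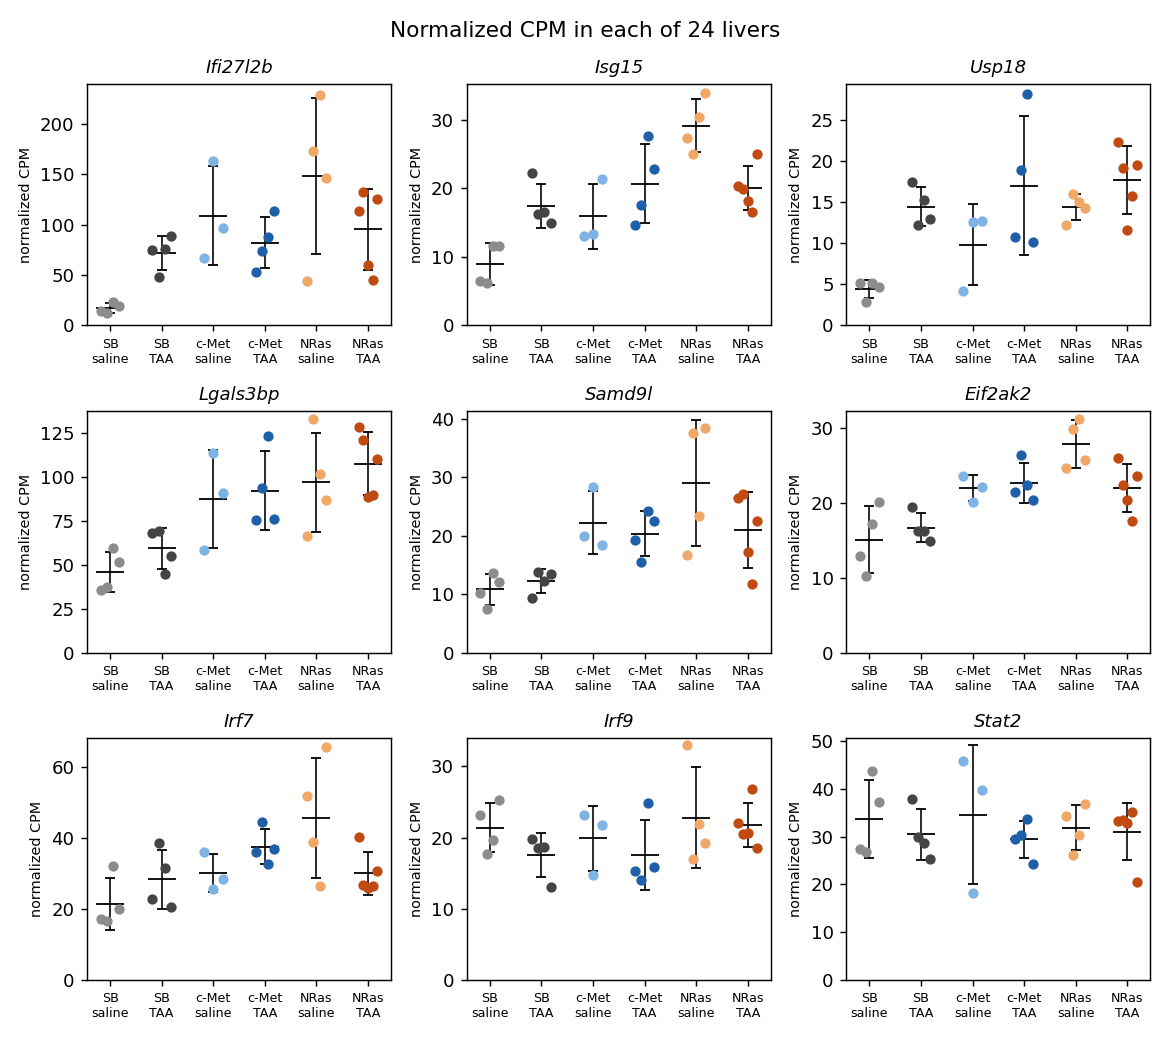
CPM of the 9 members given in every liver, one panel each, by group, with points for livers and lines for the group mean ± SD; each vertical axis starts at 0. Isg15 reaches 25.1 to 33.9 CPM in SB/AKT/NRas + saline against 6.25 to 11.6 CPM in SB + saline, and Irf9 and Stat2 overlap in all groups.

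TAA without oncogenes was read from the SB groups. In SB + TAA against SB + saline, 6 of the 41 rose and none fell, where 3.48% of all genes tested rose and 2.51% fell. An unadjusted p under 0.05 was reached by 17 members, 16 of them higher, and by 20.7% of all genes in either direction. The median member was 0.39 higher, against 0.09 for all genes, and 30 estimates were positive. For 9 members all SB + TAA livers lay above all SB + saline livers, as for 6.52% of all genes tested. Ifi27l2b rose by 2.06 ± 0.40 (adjusted p = 0.00275) and Usp18 by 1.66 ± 0.34 (adjusted p = 0.00406). Oasl1, an oligoadenylate synthetase-like protein that lacks synthetase activity, had 7.28, 6.82, 12.8 and 9.85 CPM in SB + saline and 31.3, 13.03, 24.2 and 27.9 CPM in SB + TAA. The lowest SB + TAA liver was just above the highest SB + saline liver, and the change was 1.38 ± 0.32 (adjusted p = 0.00926). Oasl1 was not called in SB/AKT/NRas + saline, where it had 14.1, 11.1, 6.25 and 20.5 CPM and overlapped SB + saline.

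Isg15 rose by 0.94 ± 0.25 with TAA alone (adjusted p = 0.0223) and Xaf1 by 1.24 ± 0.36 (adjusted p = 0.0363), Xaf1 from 3.42, 0.568, 3.61 and 2.57 CPM to 7.06, 6.71, 7.03 and 4.598 CPM. The dynamin-like GTPase Mx1 was called as well, from few molecules: its SB + saline livers had 0, 0.568, 0 and 0.428 CPM and its SB + TAA livers 4.03, 1.58, 3.67 and 0.811 CPM. In counts these were 2 molecules against 31, a ratio of 11.1 with a 95% interval of 2.82 to 95.6 that covers counting error only, and the test gave 3.24 ± 0.91 (adjusted p = 0.0322). With TAA alone, Xaf1 was not called by limma-voom (adjusted p = 0.0605) or with only the groups compared (0.0885). With each library left out in turn, the call was lost in 5 settings for Xaf1, 3 for Isg15 and 6 for Mx1. Without SB + saline replicate 1 or 2, only 3 members were called with TAA alone. Without SB + TAA replicate 4, the liver with muscle RNA, and the SB/AKT/NRas + saline liver of low human NRAS, the count of 6 was unchanged.

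SB/AKT/c-Met alone gave 1 member that rose, Ifi27l2b (2.66 ± 0.42, adjusted p = 0.00122), and none that fell, where 0.599% of all genes tested rose and 0.0413% fell. The median member was 0.48 higher, against 0.02 for all genes, and 35 estimates were positive. An unadjusted p under 0.05 was reached by 13 members, all higher, and by 10.1% of all genes in either direction. The members with the largest changes that were not called were Ifi44 (2.20 ± 0.63, adjusted p = 0.122), Mx1 (1.78 ± 1.11, adjusted p = 0.604) and Oas3 (1.61 ± 1.08, adjusted p = 0.628). This group had 3 livers, and 3 members were called without its replicate 1 or without SB/AKT/NRas + saline replicate 1. A direct comparison of the oncogene pairs under saline called 0 members by edgeR, limma-voom and DESeq2. By edgeR 0.134% of all genes were called, so the absence of calls is near that share. There, 35 of the 41 estimates were higher in SB/AKT/NRas, the median was 0.38, and 7 had an unadjusted p under 0.05, as did 9.45% of all genes. Isg15 was 0.87 ± 0.24 higher in SB/AKT/NRas + saline (adjusted p = 0.196), Oasl2 1.17 ± 0.51 (adjusted p = 0.470) and Ifi27l2a 1.00 ± 0.32 (adjusted p = 0.280). The comparisons of either oncogene pair share the SB + saline livers, so their values are set side by side and no overlap between them is given.

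**Figure D3:**
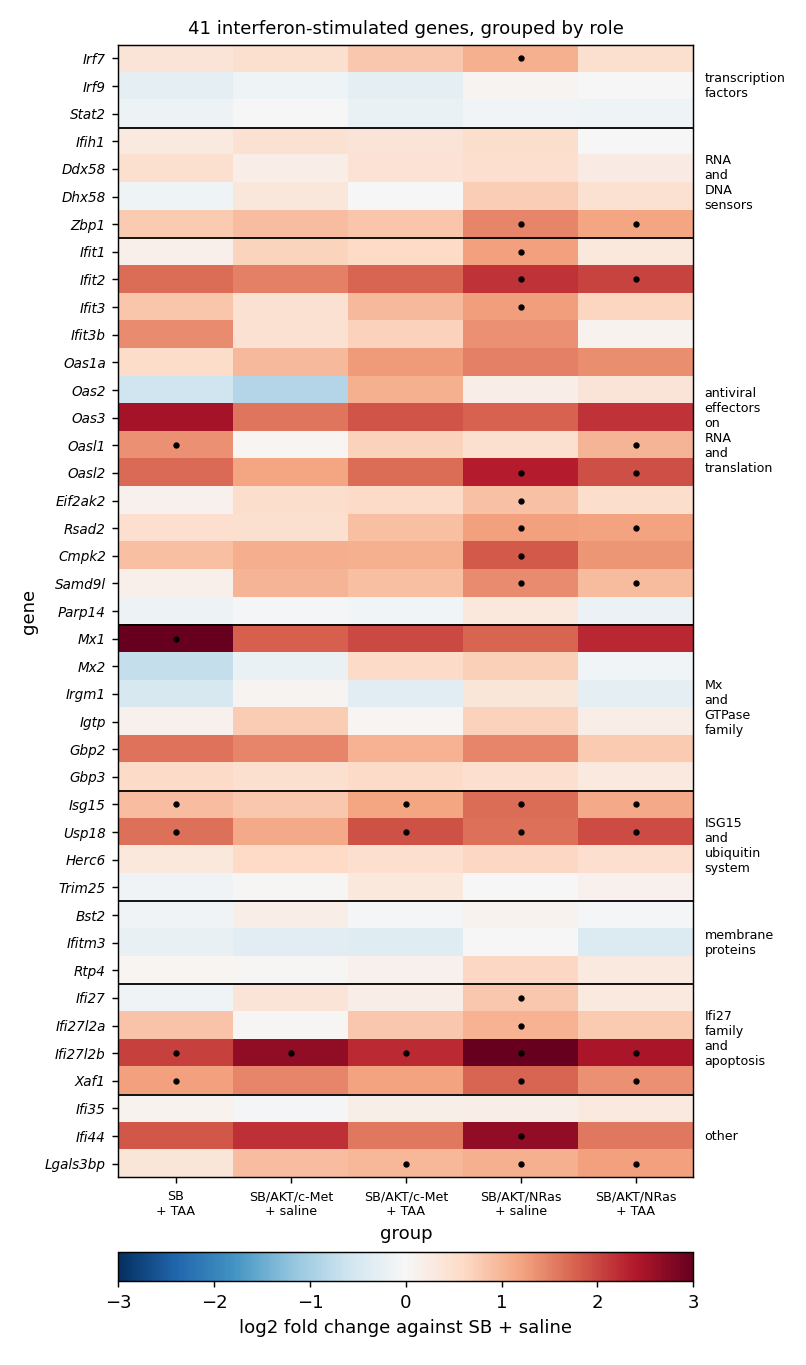
Log2 fold change of each of the 41 members, in rows grouped by role, for the 5 groups against SB + saline, in columns; colour gives the log2 fold change and a black dot marks an adjusted p under 0.05. Dots number 6 for SB + TAA, 1 for SB/AKT/c-Met + saline, 18 for SB/AKT/NRas + saline, 4 for SB/AKT/c-Met + TAA and 11 for SB/AKT/NRas + TAA.

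The groups with both oncogenes and TAA were set against SB + saline as well. In SB/AKT/NRas + TAA, 11 members rose and none fell against SB + saline, where 5.7% of all genes tested rose and 3.55% fell, with a median of 0.52. Those with the smallest adjusted p were Ifi27l2b (2.46 ± 0.39, 1.73e-04), Usp18 (1.95 ± 0.32, 2.82e-04), Lgals3bp (1.22 ± 0.22, 7.86e-04) and Isg15 (1.14 ± 0.23, 0.00229). Xaf1 (1.38 ± 0.34, 0.0097), Rsad2 (1.21 ± 0.30, 0.0109), Oasl2 (1.94 ± 0.54, 0.0196) and Zbp1 (1.18 ± 0.33, 0.0213) followed, and Samd9l, Ifit2 and Oasl1 made up the 11. In SB/AKT/c-Met + TAA, 4 rose and none fell, where 2.68% of all genes tested rose and 1.07% fell, with a median of 0.69. They were Usp18 (1.91 ± 0.34, adjusted p = 0.00102), Ifi27l2b (2.24 ± 0.40, adjusted p = 0.00116), Isg15 (1.19 ± 0.24, adjusted p = 0.00435) and Lgals3bp (1.00 ± 0.23, adjusted p = 0.0111). Without SB + saline replicate 1 or 2, the count in SB/AKT/NRas + TAA was 6 or 5. By limma-voom, Zbp1 (adjusted p = 0.0532), Samd9l (0.0648), Oasl1 (0.0733) and Oasl2 (0.101) were not called in SB/AKT/NRas + TAA against SB + saline.

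On the TAA background few members were called. Few of all genes were called there either, so the counts of called members are near those shares. Against SB + TAA, SB/AKT/NRas + TAA had 1 member that rose, Lgals3bp (0.86 ± 0.22, adjusted p = 0.0368), and none that fell, where 1.01% of all genes tested rose and 0.464% fell. The members with the largest changes that were not called were Ifit3b (-1.32 ± 0.60, adjusted p = 0.394), Oas2 (0.99 ± 0.86, adjusted p = 0.733) and Mx1 (-0.97 ± 0.61, adjusted p = 0.588). Lgals3bp was no longer called without any 1 of 6 livers (SB + TAA replicates 1, 3 and 4 and SB/AKT/NRas + TAA replicates 1, 2 and 5). For c-Met with TAA, set against TAA alone, edgeR called 0 of 41, where 0.402% of all genes were called. An unadjusted p under 0.05 was reached by 6 members and by 8.91% of all genes. Its largest estimates were Oas2 (1.67 ± 0.86, adjusted p = 0.592), Mx2 (1.27 ± 0.52, adjusted p = 0.465) and Mx1 (-1.26 ± 0.67, adjusted p = 0.601). Between the oncogene pairs under TAA, edgeR called 0 members and 0 had an unadjusted p under 0.05. Of all genes, 0.0103% were called and 4.61% had an unadjusted p under 0.05. limma-voom and DESeq2 also called 0 in both of these comparisons between groups under TAA.

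Adding TAA to an oncogene pair gave 0 called members in either case. Few of all genes were called there either, so the absence of calls is near those shares. In SB/AKT/NRas livers the estimates leaned downwards: 33 of the 41 were negative, with a median of -0.33 against -0.02 for all genes. An unadjusted p under 0.05 was reached by 11 members, all of them lower, and by 8.65% of all genes in either direction. The largest were Ifit3b (-1.28 ± 0.60, adjusted p = 0.565), Ifi44 (-1.07 ± 0.42, adjusted p = 0.474) and Ifit1 (-0.92 ± 0.27, adjusted p = 0.240). Here 0.175% of all genes were called, and Ifit3 was the only 1 of the 41 whose SB/AKT/NRas + TAA livers all lay below the SB/AKT/NRas + saline livers, as for 1.04% of all genes tested. In SB/AKT/c-Met livers, 22 estimates were positive and 19 negative, and 0.237% of all genes were called. The 3 members with an unadjusted p under 0.05 are near the share of all genes, 8.69%. The largest there were Oas2 (1.96 ± 1.02, adjusted p = 0.610), Usp18 (0.77 ± 0.32, adjusted p = 0.494) and Mx2 (0.77 ± 0.56, adjusted p = 0.771). limma-voom and DESeq2 also called 0 in each.

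The difference between these TAA effects was tested directly, as the TAA effect in oncogene livers minus the TAA effect in SB livers. With NRas, 2 members were called, both lower, where 0.583% of all genes tested were lower and 0.175% higher. An unadjusted p under 0.05 was reached by 18 members, all lower, and by 14.9% of all genes in either direction. The median was -0.75, against -0.11 for all genes, and 37 of 41 estimates were negative. For Ifi27l2b the TAA effect was 2.06 ± 0.40 in SB livers, the fitted difference was -2.69 ± 0.52 (adjusted p = 0.0115), and SB/AKT/NRas livers had a mean of 148 ± 77.6 CPM with saline (SD, n = 4) and 95.3 ± 40.0 CPM with TAA (n = 5). For Isg15 the difference was -1.48 ± 0.32 (adjusted p = 0.0238), with means of 8.97 ± 3.04 and 17.4 ± 3.24 CPM in SB livers and 29.1 ± 3.83 and 20 ± 3.21 CPM in SB/AKT/NRas livers, saline first. Isg15 thus rose with TAA in SB livers. Its mean was lower with TAA in SB/AKT/NRas livers, but that change by itself was not called. The members with the largest differences that were not called were Ifi44 (-2.94 ± 0.74, adjusted p = 0.0526), Mx1 (-2.71 ± 1.21, adjusted p = 0.290) and Ifit3b (-2.70 ± 0.91, adjusted p = 0.165). The Isg15 call was lost without SB + saline replicate 1 or 2, SB + TAA replicate 1, or SB/AKT/NRas + saline replicate 3 or 4, and without SB/AKT/NRas + saline replicate 1 the number called was 6. Ifi27l2b was not called with robust estimation (adjusted p = 0.0535). Of 10 markers of monocyte-derived macrophages, 3 were called lower in the same test and none had a positive estimate (median -2.54, range -5.77 to -0.99), and their part in the result was not tested. With c-Met edgeR and limma-voom called 0 members and DESeq2 called 1, and edgeR called 0.0103% of all genes. By edgeR, 32 estimates were negative. An unadjusted p under 0.05 was reached by 6 members, all lower, and by 8.45% of all genes in either direction. Its largest were Mx1 (-3.04 ± 1.30, adjusted p = 0.546), Oas2 (2.56 ± 1.44, adjusted p = 0.643) and Ifi44 (-2.49 ± 0.80, adjusted p = 0.396).

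**Figure D4:**
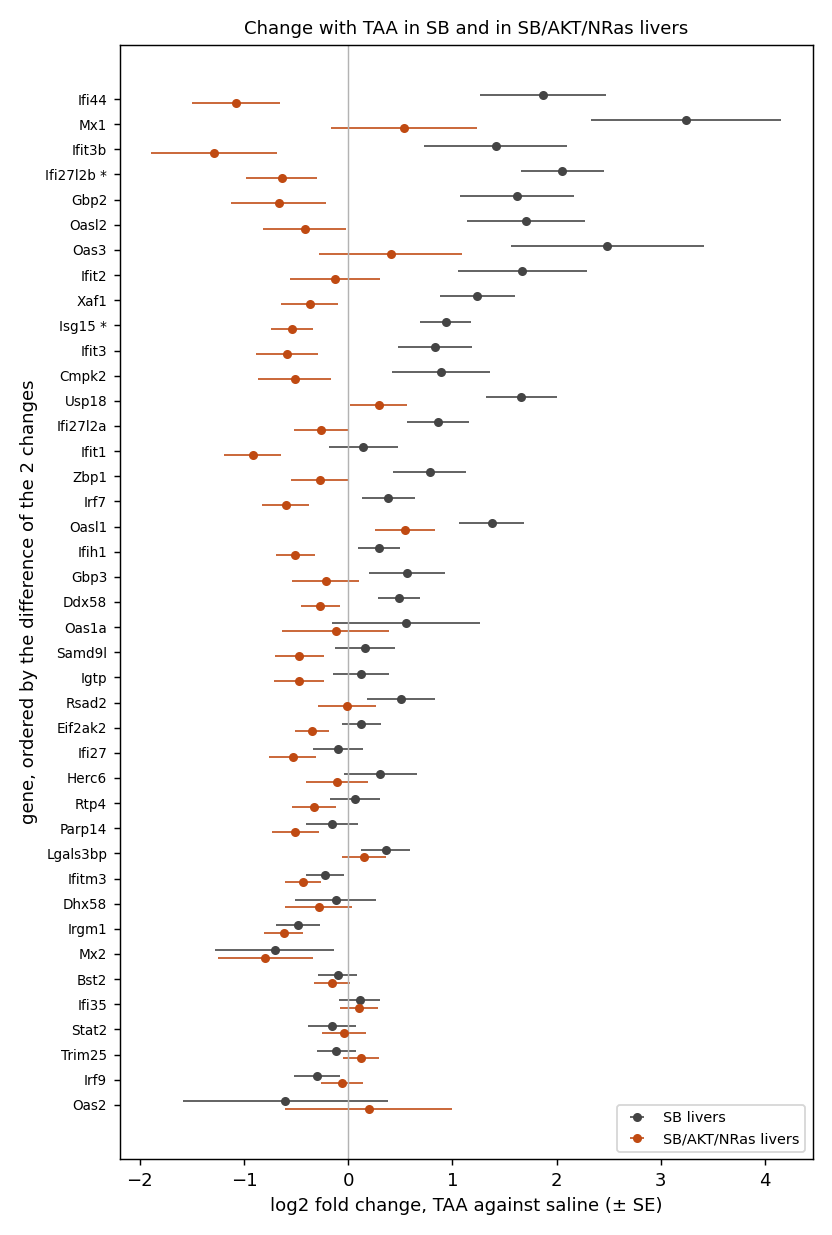
Log2 fold change with TAA against saline (± SE, horizontal axis) of each of the 41 members, 1 per line, in SB livers (grey) and in SB/AKT/NRas livers (orange), ordered by the difference between the changes; an asterisk marks an adjusted p under 0.05 for that difference. Ifi27l2b and Isg15 carry an asterisk, and the orange points of 33 of the 41 lie below 0.

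Little interferon RNA was counted. Of 20 interferon ligand genes in the table, 3 had any molecule: Ifnk with 16 counts, Ifng with 3 and Ifnb1 with 1 over all 24 libraries, and no library had more than 5. SB + saline had 0 of these counts, SB + TAA had 10, the c-Met groups had 2 under saline and 1 under TAA, and the NRas groups had 1 under saline and 6 under TAA. Ifnk alone passed the filter, and it was called in no comparison. The other ligands were not tested, and at this depth a difference in ligand RNA was not detectable. The 6 receptor genes were all above the filter. Ifnar2, a chain of the type I receptor, fell with TAA alone by 0.70 on the log2 scale (SE 0.18, adjusted p = 0.0175), from 31.4 ± 2.07 to 19.4 ± 1.86 CPM (SD, n = 4 each), and Ifnar1, the other chain, had group means between 10.8 and 13.6 CPM. In SB/AKT/NRas + saline the interferon gamma receptor chains Ifngr1 (1.18 ± 0.28, adjusted p = 0.00845) and Ifngr2 (0.83 ± 0.21, adjusted p = 0.0118) and the shared chain Il10rb (0.95 ± 0.30, adjusted p = 0.0458) rose. Il10rb also rose against SB + saline in both groups with oncogene and TAA (1.08 ± 0.30, adjusted p = 0.0354, with c-Met, and 0.93 ± 0.29, adjusted p = 0.0373, with NRas). Ifnlr1, the type III receptor chain, had 0 counts in SB + saline and 2 to 7 counts per group elsewhere.

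Among the other genes of JAK-STAT and IRF signalling that are reported here, Irf8, a myeloid factor, rose in SB/AKT/NRas + saline by 1.12 ± 0.30 (adjusted p = 0.0183), from 5.85 ± 2.37 to 12.9 ± 4.06 CPM (SD, n = 4 each), and none was called with TAA alone. Among 8 negative regulators above the filter, Samhd1, a nucleotide hydrolase, rose with TAA alone (0.87 ± 0.22, adjusted p = 0.0163) and with NRas alone (0.71 ± 0.22, adjusted p = 0.0412), and its TAA effect was lower in SB/AKT/NRas than in SB livers by -1.27 ± 0.29 (adjusted p = 0.0310). Of 12 nucleic acid sensors and adaptors, Ifi204 rose (1.05 ± 0.30, adjusted p = 0.0347) and Mavs, the adaptor of RIG-I, fell by 0.82 (SE 0.19, adjusted p = 0.00922) with TAA alone. Of all genes tested, 3.48% rose and 2.51% fell with TAA alone, so 1 call each way in 12 genes is near those shares. With NRas alone, Tmem173 (STING, 2.23 ± 0.61, adjusted p = 0.0226) and Tlr4 rose (2.15 ± 0.68, adjusted p = 0.0472), from 8 and 4 counts in all of SB + saline. Of all genes tested, 5.56% rose and 2.84% fell with NRas alone. In SB/AKT/NRas + TAA against SB + saline, 2 of the 12 rose and 1 fell, where 5.7% of all genes rose and 3.55% fell.

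Some genes induced mainly by interferon gamma were called. Of 25 above the filter, 4 rose and none fell in SB/AKT/NRas + saline, 2 rose and 1 fell with TAA alone, and 1 rose with c-Met alone. Of all genes tested, 5.56% rose and 2.84% fell with NRas alone, and 0.599% rose with c-Met alone. With TAA alone 3.48% rose and 2.51% fell, so the counts of this list with TAA are near those shares. The chemokine Cxcl10 rose with NRas alone (2.44 ± 0.60, adjusted p = 0.0108) and with TAA alone (2.60 ± 0.59, adjusted p = 0.0086), from 0.971 ± 0.564 CPM in SB + saline to 5.45 ± 3.63 and 6.23 ± 3.67 CPM (SD, n = 4 each). Its TAA effect differed between NRas and SB livers by -3.47 ± 0.74 (adjusted p = 0.0231). The chemokine Cxcl9 rose with c-Met alone (2.07 ± 0.45, adjusted p = 0.0225) and with NRas alone (1.57 ± 0.44, adjusted p = 0.0239). The GTPase Gbp9 rose with NRas alone (2.15 ± 0.62, adjusted p = 0.0287) and with TAA alone (2.11 ± 0.62, adjusted p = 0.0408), and Gbp4 with NRas alone (1.65 ± 0.52, adjusted p = 0.0464). The class I molecule H2-K1 fell with TAA alone by 0.92 (SE 0.18, adjusted p = 0.00243), from 802 ± 58.1 to 423 ± 118 CPM.

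A further 47 interferon-stimulated genes outside the 41 were listed for comparison. With NRas alone 8 of them rose and none fell, with TAA alone 4 rose and none fell, and with c-Met alone none was called. Of all genes tested, 5.56% rose and 2.84% fell with NRas alone, and 3.48% rose and 2.51% fell with TAA alone. With c-Met alone 0.599% rose and 0.0413% fell, so the absence of calls there is near that share. Of the 47, the 4 of smallest adjusted p with NRas were Ly6e (1.32 ± 0.25, 0.00188), Slfn2 (1.95 ± 0.41, 0.00367), Phf11d (2.21 ± 0.48, 0.00484) and Trim30a (1.01 ± 0.24, 0.0101). With TAA they were Ms4a4c (3.02 ± 0.73, 0.0132), Phf11b (1.88 ± 0.51, 0.0259), Slfn9 (1.78 ± 0.52, 0.0378) and Trim30a (0.82 ± 0.24, 0.0433). Ly6e, a membrane protein, averaged 184 ± 36.3 CPM in SB + saline and 458 ± 147 CPM in SB/AKT/NRas + saline (SD, n = 4 each). Psme1, a proteasome activator subunit, was higher in NRas livers than in SB livers under TAA (0.52 ± 0.13, adjusted p = 0.0273).

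Cell type markers moved in the same groups. In bulk tissue, fewer cells of a type and less RNA per cell cannot be told apart. For the counts below, 3.48% of all genes tested rose and 2.51% fell with TAA alone. With NRas alone 5.56% rose and 2.84% fell, and with c-Met alone 0.599% rose and 0.0413% fell. Of 10 genes listed as markers of monocyte-derived macrophages, 7 rose with TAA alone, 7 with NRas alone and 1 with c-Met alone. Leaving out Spp1, which cholangiocytes also express, their summed level was 68.8 to 132 CPM in SB + saline, 202 to 299.9 CPM in SB + TAA and 163 to 378 CPM in SB/AKT/NRas + saline, so neither group overlapped SB + saline. In the c-Met groups it was 86.6 to 244 CPM under saline and 205 to 368 CPM under TAA, and in SB/AKT/NRas + TAA it was 126.5 to 378 CPM. The summed level of 8 hepatocyte markers ran the other way, from 91630 to 110100 CPM in SB + saline to 47920 to 81410 CPM in SB/AKT/NRas + saline, with 3 of the 8 called lower there and 2 of the 8 with TAA alone. None of 5 Kupffer cell markers was called with NRas alone or with TAA alone. Of 8 genes listed for plasmacytoid dendritic cells, the main interferon producers, 2 were called with NRas alone, Ly6d and Tcf4, while the defining marker Siglech was not (0.38 ± 0.99, adjusted p = 0.883). With TAA alone Ly6d and Cox6a2 were called, and Siglech was not (1.36 ± 0.92, adjusted p = 0.422). Cox6a2, also a gene of striated muscle, had 525.5 CPM in SB + TAA replicate 4, the liver with muscle RNA, and 0.395 to 0.917 CPM in the other SB + TAA livers. Among the remaining lists, those called higher with NRas alone were 2 of 5 neutrophil, 1 of 7 conventional dendritic cell, 3 of 6 stellate cell and 3 of 5 cholangiocyte genes, and with TAA alone 1 of 9 T and NK cell, 3 of 6 stellate cell, 1 of 6 endothelial and 6 of 6 skeletal muscle genes. The high muscle level was that of 1 liver. Its sum was 4838 CPM in SB + TAA replicate 4 and 5.38, 6.71 and 5.81 CPM in replicates 1, 2 and 3. No B cell marker was called with NRas alone or TAA alone, nor was the leukocyte gene Ptprc. The part of these cells in the levels of the 41 genes was not tested.

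Within the 41, members varied together from liver to liver to different degrees. Over the 24 livers, the correlation (Pearson's r) of each member's log2 CPM with the mean of the other 40 had a median of 0.507, was above 0.5 for 21 members, and reached 0.937 for Isg15, 0.884 for Cmpk2, 0.847 for Rsad2 and 0.809 for Eif2ak2. The lowest was 0.0649. After group means were removed the median was 0.345 and 11 members were above 0.5. All genes of a liver share its library depth and TMM factor, so the values describe the livers and carry no test. The 5 genes outside the list most like the members' mean over the 24 livers were Slc11a1 (r = 0.857), Apobec1 (0.8289), Spi1 (0.811), Cybb (0.794) and Cd52 (0.791). Slc11a1, Spi1 and Cybb are best known from myeloid cells, and all 5 had their lowest group mean in SB + saline.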

How the data were processed

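The 24 liver libraries were prepared by the authors with a sample index and a unique molecular identifier added at poly-A priming, pooled and sequenced from the 3′ side. Per the methods and the file headers, reads were demultiplexed with Sabre, aligned with STAR to GRCm38 with human NRAS and MET added, deduplicated by identifier and counted with featureCounts 1.6.4 (strand setting 1, minimum mapping quality 10). The deposited values are raw counts per gene. 3′ counting is not scaled by length, so levels were not compared between genes. Reads shared by near-identical genes can be lost at this mapping quality.

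Here, groups came from the labels and all 6 were fitted in 1 model. Genes that reached 0.5 CPM in 2 or more libraries were scaled by TMM and tested with edgeR 4.0.16 (R 4.3.3, quasi-likelihood F test, Benjamini-Hochberg adjustment over all these genes). SE is the absolute log2 fold change divided by the square root of F. Log2 CPM used a prior count of 2. The steps were tested on simulated data. limma 3.58.1 (voom), DESeq2 1.42.0, other scaling and filters, a replicate block and each library left out were alternatives. Libraries of a group differed beyond counting noise in all 37 pairs (chi-square per degree of freedom 2.88 to 65.9). Labels do not name a batch. The column names begin with a number that is lower in every SB + saline library than in every SB/AKT/NRas library. Its bearing on that comparison was not tested.

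Named members are the 6 with the smallest F test p plus Irf7, Irf9 and Stat2, and in each comparison up to 8 called members by adjusted p, with up to 3 others of largest change where fewer than 3 were called. Members of other lists are the up to 4 called genes of smallest adjusted p and all receptors and ligands. Names outside these rules (Ifit2, Ifit3, Ifit3b, Ifih1, Ddx58, Dhx58, Bst2, Ifitm3, Rtp4 and the markers named) were given after their values were seen. Not every gene of the signalling list is reported here. The 41 members and all lists were chosen with earlier results of these data known. Promoter sequences are from RefSeq on GRCm38.p6, for 30 of 41 members. The figures were drawn with matplotlib 3.10.9.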

Additional observations from a re-analysis of the deposited data

Results flagged for a closer look

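The TAA effect on Ifi27l2b differed between SB/AKT/NRas and SB livers by -2.69 on the log2 scale and that on Isg15 by -1.48, by the direct test of the difference given above. Within groups of 4 or 5 livers, a single liver stood far from the others of its group in 2 of 50 tests, about as many as the 1 in 20 that chance gives: Irf9 reached 24.9 CPM in SB/AKT/c-Met + TAA replicate 3, where the other 3 livers had 14.1 to 15.8 CPM, and Stat2 was at 20.6 CPM in SB/AKT/NRas + TAA replicate 5, where the other 4 had 32.9 to 35.1 CPM.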

How the results depend on the processing

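No called member changed direction under any alternative, and 23 of the 43 calls of a member in a comparison held under all of them other than the added fold threshold, with which 22 held. Counts of called members are given in the order of the comparisons. For the test across 6 groups (13 called), limma-voom gave 8, library size alone 24 and no filter on low counts 20. For TAA alone (6), library size alone gave 17, and for c-Met alone (1), DESeq2, library size alone, only the groups compared, and both livers that stand apart left out gave 3, no filter 4 and filterByExpr 2. For NRas alone (18), library size alone gave 30. Library size alone moved the median of all genes against SB + saline to 0.46, 0.28 and 0.50 for these 3 comparisons, and the members' median less that of all genes was 0.29, 0.45 and 0.99, against 0.30, 0.46 and 0.97 with TMM. For NRas with TAA against SB + TAA (1), library size alone, both livers left out and an added fold threshold gave 0 and no filter 2. Against SB + saline, c-Met with TAA (4) gave 18 with library size alone, 10 without filter and 9 with only the groups compared. NRas with TAA (11) gave 25 with library size alone and 8 with limma-voom, 7 of these 8 among the 11. Between the oncogene pairs under saline (0), no filter gave 2 and both livers left out 1. For the difference in TAA effect with c-Met (0), DESeq2, no filter, only the groups compared and both livers left out gave 1, and with NRas (2), library size alone gave 9, no filter 10, robust estimation 1 and both livers left out 4. The causes of these shifts were not tested, and fewer genes are tested with a stricter filter.

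With each library left out, the counts ran from 7 to 16 across groups (7 without SB + saline replicate 2, 8 without SB/AKT/NRas + TAA replicate 2), 3 to 9 for TAA alone, 1 to 3 for c-Met alone, 12 to 18 for NRas alone, 0 to 1 for NRas with TAA against SB + TAA, 3 to 6 and 5 to 12 for c-Met and NRas with TAA against SB + saline, 0 to 1 for the c-Met difference and 1 to 6 for the NRas difference. The difference for NRas gave 1 without SB + saline replicate 1 or 2 or SB/AKT/NRas + saline replicate 3 or 4.

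Label numbers are shared between groups, but they do not pair the livers: deviations from group means had a mean r of -0.00717 over 55 pairs of the same number and 0.00211 over 184 pairs of different numbers. With a replicate block, the counts were 10 across groups, 6 for TAA alone, 1 for c-Met alone, 19 for NRas alone, 0 for NRas with TAA against SB + TAA, 4 and 8 for c-Met and NRas with TAA against SB + saline, and 3 for the NRas difference. Depth limits the members with few molecules (Mx1, Oas2 and Oas3) and the interferon ligands.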
